A study of Mus musculus with 20 samples.

Results

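The genes described here are 10 markers used for myeloid cells that enter the liver from the blood: Cd14, S100a4, S100a8, S100a9, Ccr2, Ly6c2, Ngp, Lcn2, Cx3cr1 and Itgam. They were taken by symbol from the 24968 symbols used in each deposited table, and all 10 were found in both tables. RNA sequencing covered total liver of mice fed an alcohol or a control diet for 6 weeks, and cultures of RAW264.7, a mouse macrophage-like cell line, given a treatment for 6 hours. The liver libraries were WT mice on alcohol diet (n = 4), WT mice on control diet (n = 4), mice labelled RageΔMye on alcohol diet (n = 3) and mice labelled RageΔMye on control diet (n = 3). The RAW264.7 libraries, WT by their labels, were treated with [O] HMGB1 plus IL1β, called the complex here (n = 3), or with BSA (n = 3). The labels describe every library as male and give no strain, no age and no driver for the RageΔMye allele, whose name is read here as a deletion in myeloid cells of Ager, which encodes RAGE, a receptor for HMGB1 and S100 proteins. Nothing in the labels says that replicates came from separate animals or cultures, so each p-value measures the spread between these libraries, which may be technical.

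Monocytes leave the bone marrow through the chemokine receptor Ccr2 and carry Ly6c2 on their surface, while patrolling monocytes depend more on the chemokine receptor Cx3cr1. Neutrophils store the alarmins S100a8 and S100a9 in the cytosol and Ngp and Lcn2 in their granules, and use the integrin chain Itgam to adhere to vessel walls. Cd14 and Lcn2 are not private to leukocytes, since mouse hepatocytes also make both in an acute-phase response. In bulk liver RNA, a change in the number of cells of a type and a change in RNA per cell cannot be told apart.

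The promoter windows of S100a8, S100a9, Ngp and Lcn2, whose products neutrophils store, are shown because each of these genes rose in WT liver. The sequences are RefSeq's for GRCm38.p6, each from 250 bases before to 50 bases after the start site in RefSeq's table, which can differ from the outer end of the GENCODE gene given with the values, and capitals mark matches to 3 motifs searched on both strands. S100a8 lies at chr3:90668821-90669120, plus strand. S100a9 lies at chr3:90695672-90695971, minus strand. Ngp lies at chr9:110419558-110419857, plus strand, and Lcn2 lies at chr2:32387690-32387989, minus strand.
S100a8: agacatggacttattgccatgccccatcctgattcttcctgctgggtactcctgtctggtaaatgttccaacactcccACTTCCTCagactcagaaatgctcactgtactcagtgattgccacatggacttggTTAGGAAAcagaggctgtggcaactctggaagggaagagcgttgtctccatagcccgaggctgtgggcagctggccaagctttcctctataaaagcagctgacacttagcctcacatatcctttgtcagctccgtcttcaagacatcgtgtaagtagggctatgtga
S100a9: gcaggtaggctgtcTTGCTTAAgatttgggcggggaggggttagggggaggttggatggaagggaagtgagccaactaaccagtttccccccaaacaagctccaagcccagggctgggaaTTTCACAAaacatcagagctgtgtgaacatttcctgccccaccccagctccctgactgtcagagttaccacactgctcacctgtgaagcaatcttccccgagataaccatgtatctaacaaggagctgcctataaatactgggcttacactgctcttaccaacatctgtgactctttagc
Ngp: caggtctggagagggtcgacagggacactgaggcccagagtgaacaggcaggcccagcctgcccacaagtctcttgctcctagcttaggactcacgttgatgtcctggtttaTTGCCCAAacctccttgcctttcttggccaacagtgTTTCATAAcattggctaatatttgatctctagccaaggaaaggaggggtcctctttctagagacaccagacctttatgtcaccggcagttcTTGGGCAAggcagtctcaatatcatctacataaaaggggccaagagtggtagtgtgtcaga
Lcn2: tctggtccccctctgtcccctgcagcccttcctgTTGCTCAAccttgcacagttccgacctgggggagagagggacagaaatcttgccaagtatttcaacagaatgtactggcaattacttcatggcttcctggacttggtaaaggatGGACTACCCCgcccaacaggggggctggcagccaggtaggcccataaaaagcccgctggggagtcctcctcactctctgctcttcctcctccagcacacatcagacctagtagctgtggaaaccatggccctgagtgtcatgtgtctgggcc
The motifs were a C/EBP motif, TTNNGNAA, an NF-kB motif of 3 G and 2 C with 5 open positions between them, and a PU.1 motif, GAGGAAGT. The C/EBP letters were found 3 times in the Ngp window, 2 times in that of S100a9 and 1 time each in those of S100a8 and Lcn2. The C/EBP match of S100a8 and the last one of Ngp read as the letters given, and the other C/EBP matches read in reverse orientation. Beside these, the Lcn2 window held 1 NF-kB match and the S100a8 window 1 PU.1 match, each in reverse orientation. Among all 32851 promoter windows of this length, 40.7% held the C/EBP letters, 50.8% the NF-kB letters and 3.2% the PU.1 letters. A window was present for 9 of the 10 genes, and these matches describe letters only.

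The 3 sets of libraries differed widely in how many genes they listed. Between 15471 and 15595 genes were above 0 in WT alcohol libraries and between 15109 and 15419 in WT control libraries, against 7592 to 8499 genes in the libraries labelled RageΔMye. RAW264.7 libraries listed 8629 to 9229. Symbols whose exons overlap those of an opposite-strand gene took 57.8% to 64.0% of the TPM of matched symbols in the libraries labelled RageΔMye, 69.3% to 73.5% in RAW264.7 libraries and 15.8% to 18.4% in WT liver, and only Cx3cr1 among the 10 markers has such an overlap. Ager was at 93.1 to 166 TPM in the libraries labelled RageΔMye, and under 0.5 TPM in every WT library, so it was higher where the label names its deletion. That deletion is read as one in myeloid cells only, and the sets differ in the share above, so total-liver Ager does not check the genotype. What sets its level was not tested. Xist, expressed from the inactive X chromosome of females, was at 17.8 to 27.3 TPM in WT alcohol livers and at 0.00165 to 0.135 TPM in WT control livers, while 4 Y-linked genes summed to at most 0.0161 TPM in WT alcohol livers and to 11.3 to 16.6 TPM in WT control livers. Diet and the sex that these genes mark cannot be told apart in the WT comparison, against labels that call all of them male. In the libraries labelled RageΔMye, the Y-linked total was also lower on the alcohol diet. On alcohol it ranged from 0.276 to 1.74 TPM, and on control diet from 3.16 to 4.5 TPM. Xist overlapped between these diets, with 0.322 to 0.99 TPM on alcohol and 0 to 3.1 TPM on control. Whether sex differs between the diets in the libraries labelled RageΔMye was not tested.

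In WT liver, 7 of the 8 markers that could be tested rose on the alcohol diet, against 13.3% of all genes tested. Ngp, S100a4 and Itgam were among these 8 only through the alcohol group, where they are high, so the count gives no support of its own. In a joint fit of the 14 liver libraries, Ngp was the marker that still passed, and it was listed at 0 in every library labelled RageΔMye, which add no spread for it. The neutrophil products S100a8, S100a9 and Ngp were higher, as was Lcn2, which like Cd14 is also made by hepatocytes. The endotoxin co-receptor Cd14, the integrin chain Itgam and the calcium-binding protein S100a4 were higher too. Ratios of the group means for these 7 lay between 1.74 for Itgam and 7.48 for Cd14. The ratio for Lcn2 was 7.29, and 15.6 without WT control 4. Ly6c2 did not pass, and the chemokine receptors Ccr2 and Cx3cr1 were too low to be tested. The plot of TPM by library in WT liver shows every value.

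**Figure D1:**
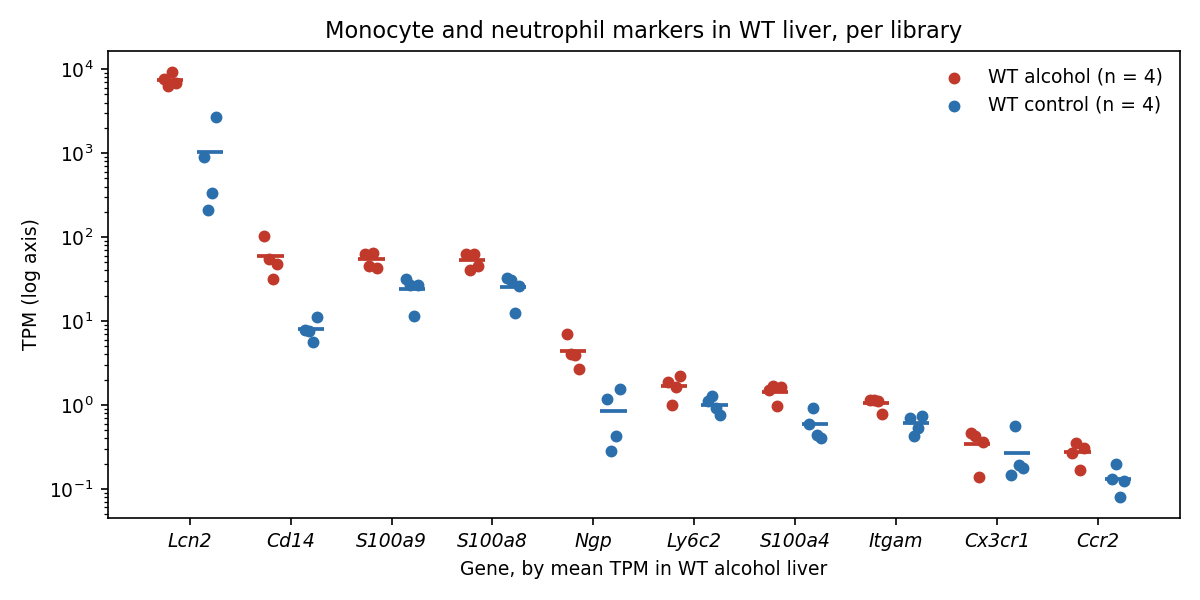
TPM of the 10 markers in each WT liver library on a log axis, alcohol diet in red and control diet in blue, with the group mean as a line (n = 4 each). For 7 markers every alcohol library lies above every control library, as for 12.3% of the genes tested, and Lcn2 reaches 9272 TPM while Ccr2 stays under 0.35 TPM.

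S100a8 and S100a9 encode the paired subunits of calprotectin, which neutrophils and monocytes release as an alarmin. S100a8 was at 63.1, 41.1, 62.9 and 44.9 TPM in the 4 WT alcohol livers, against 32.7, 30.6, 12.5 and 26.3 TPM in the 4 WT control livers. S100a9 was at 62.5, 45.5, 65.2 and 43.3 TPM in WT alcohol livers, against 31.5, 27.2, 11.4 and 27.0 TPM in WT control livers. Neither gene's groups overlapped, and WT control 3 was the lowest library for both. The log2 fold change on the TPM + 1 scale was 1.08 for S100a8 (SE 0.27, adjusted p = 0.0143) and 1.19 for S100a9 (SE 0.28, adjusted p = 0.00998), each with limma and Benjamini-Hochberg adjustment over all genes tested. The paired subunits kept close to equal TPM in each library. The ratio of S100a8 to S100a9 ranged from 0.902 to 1.04 in WT alcohol livers and from 0.976 to 1.13 in WT control livers, as the scatter of the subunits shows. The genes are neighbours on chromosome 3, with S100a8 at chr3:90668978-90670035 on the plus strand and S100a9 at chr3:90692632-90695721 on the minus strand in GRCm38, the build the files use.

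**Figure D2:**
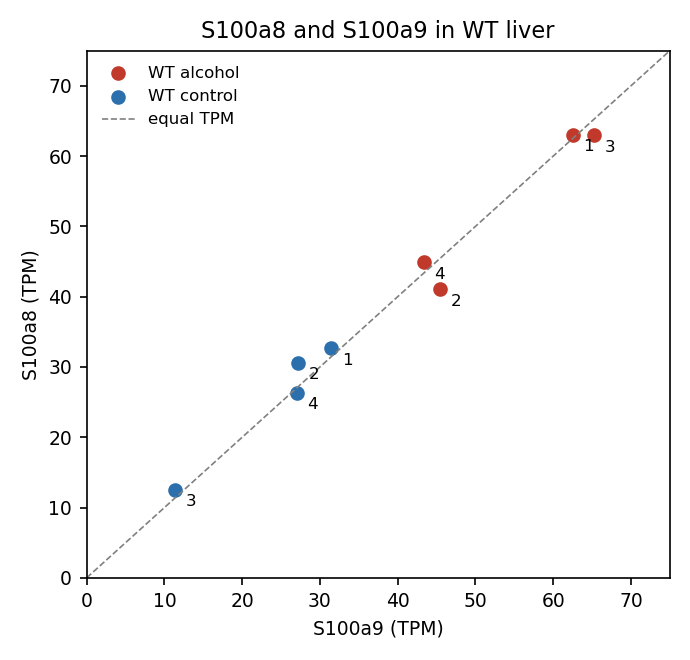
S100a8 TPM against S100a9 TPM in the 8 WT liver libraries, alcohol in red and control in blue, each point numbered by its library; the dashed line marks equal TPM. All 8 points lie close to the line, and the 4 alcohol libraries lie above the 4 control libraries on both axes.

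Ngp, neutrophilic granule protein, belongs to the secondary granules of maturing neutrophils. It was at 6.97, 4.01, 3.96 and 2.70 TPM in WT alcohol livers, against 1.17, 0.284, 0.431 and 1.53 TPM in WT control livers. The groups did not overlap, with WT alcohol 1 the highest, and the log2 fold change was 1.55 (SE 0.27, adjusted p = 0.0023, limma). Lcn2, which binds bacterial siderophores and starves bacteria of iron, was the most abundant marker in all 8 WT libraries. It was at 7572, 6243, 9272 and 6918 TPM in WT alcohol livers, against 897, 213, 332 and 2673 TPM in WT control livers. Every alcohol library was above every control library, and WT control 4 stood above the other control libraries. The log2 fold change of Lcn2 was 3.53 (SE 0.63, adjusted p = 0.00271, limma), and its transcripts made up 0.624% to 0.927% of all TPM in WT alcohol livers and 0.0213% to 0.267% in WT control livers. Lcn2 lies at chr2:32384633-32388252 on the minus strand, and Ngp at chr9:110419747-110423012 on the plus strand.

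Cd14 presents bacterial endotoxin to the receptor Tlr4 on monocytes and macrophages. It was at 104.0, 55.4, 31.2 and 48.3 TPM in WT alcohol livers, against 7.77, 7.52, 5.64 and 11.02 TPM in WT control livers. The groups did not overlap, and among the markers Cd14 had the smallest adjusted p (log2 fold change 2.66, SE 0.31, adjusted p = 0.000264, limma). Itgam, the alpha chain of the adhesion and complement receptor on neutrophils, monocytes and macrophages, was at 1.15, 1.15, 1.11 and 0.781 TPM in WT alcohol livers and at 0.703, 0.427, 0.537 and 0.745 TPM in WT control livers. Its groups were separated by a narrow gap, since the lowest alcohol library was just above the highest control library. The log2 fold change of Itgam was 0.35 (SE 0.11, adjusted p = 0.0343, limma), and it no longer passed when any of WT control 2, WT control 3, WT alcohol 1, WT alcohol 2 or WT alcohol 3 was left out, with adjusted p between 0.0774 and 0.0916. Itgam lies at chr7:128062640-128118491 on the plus strand.

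S100a4, a calcium-binding protein of migrating monocytes and fibroblasts, was at 1.504, 1.66, 0.960 and 1.64 TPM in WT alcohol livers, against 0.587, 0.926, 0.432 and 0.402 TPM in WT control livers. Its groups did not overlap, and the log2 fold change was 0.62 (SE 0.14, adjusted p = 0.00843, limma). Ly6c2, a surface protein of classical monocytes, was at 1.89, 1.00, 1.65 and 2.22 TPM in WT alcohol livers and at 1.10, 1.27, 0.926 and 0.755 TPM in WT control livers. WT alcohol 2 lay within the control range, and the gene did not pass (log2 fold change 0.41, SE 0.15, adjusted p = 0.0686, limma), while without that library the adjusted p was 0.019. Ly6c2 values are uncertain, since its transcript is 97.6% identical over 822 aligned bases to one of Ly6c1, with which it can share reads.

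Ccr2, the receptor that brings monocytes toward the chemokine Ccl2, was at 0.267, 0.349, 0.170 and 0.310 TPM in WT alcohol livers, against 0.131, 0.197, 0.0809 and 0.123 TPM in WT control livers. WT alcohol 3 lay within the control range. Cx3cr1, the fractalkine receptor of patrolling monocytes and some tissue macrophages, was at 0.457, 0.429, 0.140 and 0.361 TPM in WT alcohol livers and at 0.148, 0.563, 0.191 and 0.178 TPM in WT control livers. WT control 2 was the highest of the 8 libraries for Cx3cr1, and the groups overlapped. Both genes had a mean under 1 TPM in each group and were left untested. With no filter, Ccr2 had a log2 fold change of 0.17 on the TPM + 1 scale (SE 0.05, adjusted p = 0.0497) and Cx3cr1 one of 0.09 (SE 0.12, adjusted p = 0.627) with limma.

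Of the 9744 genes tested in WT liver, 1296 were higher on alcohol, which is the 13.3% above, and 1744 were lower. The median log2 fold change was 1.14 over the 8 tested markers and -0.05 over all genes tested. Since Ngp, S100a4 and Itgam were tested only through the alcohol group, this median, like the count above, gives no support of its own. The log2 fold changes of low markers depend on the pseudocount of 1, and at a pseudocount of 0.01 they were 2.58 for Ngp, 1.33 for S100a4, 0.80 for Itgam and 0.71 for Ly6c2. Over all 10 markers, 7 had every alcohol library above every control library, against 12.3% of the genes tested. The exact permutation test over the 8 libraries, two-sided, gave p = 0.0286 for each of these 7, the smallest it can give, and p = 0.0857 for Ly6c2, both unadjusted. Groups without overlap can only give that smallest value, so the test adds nothing to the separation of these 7. When the 14 liver libraries were fitted together, Ngp alone passed, with 1.43% of 12066 genes called higher in that fit. The log2 fold changes were the same there, while the standard error was 1.00 in place of 0.31 for Cd14 and 1.28 in place of 0.63 for Lcn2. Ngp, S100a4 and Ly6c2 were listed at 0 in all 6 libraries labelled RageΔMye, which add no spread for them. The adjusted p there was 0.00692 for Ngp, 0.0649 for S100a4 and between 0.252 and 1.0 for the other tested markers.

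Ranked by mean TPM, the markers formed steps in WT alcohol liver. Lcn2 was above all others, Cd14, S100a9 and S100a8 overlapped one another, and Ngp stood alone below them. Ly6c2, S100a4 and Itgam then overlapped in sequence, as did Cx3cr1 and Ccr2 at the bottom. In WT control liver Lcn2 was again highest, S100a8 and S100a9 overlapped, and Cd14 lay below them with no overlap, so the order of Cd14 and the S100 pair by mean differed between diets. The remaining 6 markers overlapped with their neighbours in WT control liver. No library was high for every marker. WT alcohol 1 was the highest alcohol library for 5 markers, Cd14, S100a8, Ngp, Cx3cr1 and Itgam, and WT alcohol 3 was lowest for 4, including Cd14, while it was highest for S100a9 and Lcn2. Among control libraries, WT control 4 was highest for Cd14, Ngp, Lcn2 and Itgam and WT control 3 was lowest for Cd14, S100a8, S100a9 and Ccr2.

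The 3 tested genes with the most similar profile were found for each tested marker as the smallest root mean square difference of centred log2(TPM + 1) over the 8 WT libraries, as a description. S100a8 and S100a9 were each other's nearest gene, with a difference of 0.0937, and both had Retnlg, a resistin-like gene of neutrophils, and Apbb3 among their 3. Nearest to Cd14 were Ier3, Sgms1 and Gadd45b, with differences of 0.272 to 0.302. Nearest to Lcn2 were Syt12, Steap4 and Hcar2, with differences of 0.569 to 0.659. Ngp had Slc13a5, Alpk1 and Pnp, Itgam had Fcna, Nck1 and Per1, S100a4 had Ddah2, Napsa and Rcn3, and Ly6c2 had Rpl22l1, Snhg12 and Rps27rt.

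Other genes of neutrophils and monocytes were measured beside the markers. Counts of WT calls in this and the following lists stand beside those of all genes tested, of which 13.3% rose and 1744 of 9744 fell. Among 30 other neutrophil genes, 14 could be tested, of which 6 rose, 1 fell and the median log2 fold change was 0.33. Of the 6, Chil1, Mcemp1 and Mmp8 were tested only through the alcohol group, and Prtn3, the 1 that fell, only through the control group, so these counts are descriptions. Lrg1, a glycoprotein that hepatocytes make as well as neutrophils, averaged 538.5 ± 44.9 TPM in WT alcohol livers and 266.5 ± 89.1 TPM in WT control livers (SD, n = 4 each; adjusted p = 0.00384, limma). Chil1, a chitinase-like protein, averaged 4.20 ± 2.42 TPM in WT alcohol livers and 0.930 ± 0.421 TPM in WT control livers (adjusted p = 0.00866, limma), and Mcemp1 rose by 0.56 on the log2 scale. Prtn3, the primary granule protease proteinase 3, was the gene that fell, to 0.751 ± 0.110 TPM in WT alcohol livers against 3.23 ± 1.30 TPM in WT control livers (adjusted p = 0.00159, limma). Among tested genes of this list that did not pass, log2 fold changes were -0.25 for Csf3r, 0.11 for Fpr1 and -0.07 for Fpr2, all chosen after their values were seen. The granule and surface genes Ly6g, Camp and Ltf were under the filter in WT liver. Ly6g was at 0.461 to 1.03 TPM in WT alcohol livers and 0 to 0.142 TPM in WT control livers, Camp was at 0.409 to 0.576 TPM in WT alcohol livers and 0 to 0.250 TPM in WT control livers, and Ltf was at 0.460 to 1.68 TPM in WT alcohol livers and 0 to 0.399 TPM in WT control livers. Of the primary granule genes, Elane was at 0.0632 to 0.210 TPM in WT alcohol livers and 0.186 to 0.742 TPM in WT control livers, and Mpo was under 0.18 TPM in all 8; these 5 genes, untested in WT liver, were chosen after their values were seen.

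Among 28 other monocyte and monocyte-derived macrophage genes, 23 could be tested, of which 9 rose and none fell, with a median log2 fold change of 0.45. Itgax and Ly6c1 were tested only through the alcohol group. Plac8, expressed in blood monocytes and granulocytes, averaged 23.2 ± 5.99 TPM in WT alcohol livers and 8.80 ± 2.20 TPM in WT control livers (SD, n = 4 each; adjusted p = 0.00157, limma). Itgax, the integrin chain CD11c, averaged 1.25 ± 0.19 TPM in WT alcohol livers and 0.378 ± 0.105 TPM in WT control livers (adjusted p = 0.00102, limma). Ly6c1 and the chemokine gene Ccl9 rose by 0.73 and 0.74 on the log2 scale. These named genes are the ones with the smallest adjusted p. Among those that did not pass, log2 fold changes were 0.12 for Csf1r, 0.30 for Cd68, 0.09 for Clec7a and -0.14 for Cd300e, all chosen after their values were seen. Among 12 pan-leukocyte genes, 11 were tested, 7 rose and none fell, with Coro1a, Arhgdib, Fcer1g and Laptm5 higher by 0.54 to 0.64 on the log2 scale. Summed over that list, TPM was 104 to 138 in WT alcohol livers and 96.6 to 107 in WT control livers. Of 13 Kupffer cell genes, the markers of resident liver macrophages, none rose and 1 fell, the iron exporter Slc40a1, and their median was 0.14.

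Genes that recruit these cells or act with the marker products were also measured. Of 28 chemokine, growth factor and adhesion genes, 14 were tested, 7 rose and 1 fell, with a median log2 fold change of 0.46. Of the 7, 1 was tested only through the alcohol group, so these counts are descriptions. Icam1, to which the Itgam integrin binds, averaged 20.0 ± 5.22 TPM in WT alcohol livers and 7.65 ± 1.63 TPM in WT control livers (SD, n = 4 each; adjusted p = 0.00118, limma). Vcam1 and Ccl5 rose by 0.91 and 0.79 on the log2 scale, and Cxcl12 was the gene that fell. The Ccr2 ligand Ccl2 was under the filter, with 0.724 ± 0.308 TPM in WT alcohol livers and 0.126 ± 0.125 TPM in WT control livers, and was chosen after its values were seen. Of 19 receptors and partners of the marker products, 12 were tested, 10 rose and none fell, with a median of 0.91. Tlr2 averaged 3.27 ± 0.85 TPM in WT alcohol livers and 1.21 ± 0.18 TPM in WT control livers (adjusted p = 0.00227, limma), Myd88 rose by 1.00, Cd36 by 1.93 and Fgg, a chain of the Itgam ligand fibrinogen, by 1.30, all on the log2 scale. Tlr4 and Ager, a receptor of S100a8 and S100a9, were under the filter in WT liver.

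Of 17 hepatic acute-phase genes, all tested, 14 rose and none fell, with a median log2 fold change of 1.20. Steap4, which was among the nearest genes to Lcn2, was at 856 to 1365 TPM in WT alcohol livers and 53.2 to 353 TPM in WT control livers (adjusted p = 0.000946, limma), and Hamp, Orm1 and Hpx rose by 1.32, 1.26 and 0.97. Of 14 other S100 family symbols, 7 were tested, and the 1 that passed was S100pbp, which encodes a binding protein rather than an S100 protein and fell by 0.49. Among genes of other cells, the granzyme genes Gzma and Gzmb rose and Cd4 fell out of 6 tested T and NK cell genes, the 1 tested B cell gene, Cd79b, did not pass (log2 fold change 0.48), and the dendritic cell gene Clec10a rose. Beside these, 3 of 7 endothelial genes (Lyve1, Cdh5, Pecam1), 2 of 5 stellate cell genes (Des, Pdgfrb) and 2 of 8 hepatocyte genes (Tat, Hnf4a) rose. Over all genes tested in WT liver 13.3% rose, and counts this small are descriptions. Of 6 red cell and platelet genes, Hbb-bt and Hba-a1 rose, the second listed at 0 in every WT control library, and Alas2, an enzyme of red cell precursors, fell by 2.65 on the log2 scale, and of 14 housekeeping genes Actb rose and Hprt fell. Gzma, Gzmb, Clec10a, Des and Hba-a1, like the pan-leukocyte gene Cd53, were tested only through the alcohol group, and Cd4 only through the control group. Mmp8 and Cd53 are named for this after their values were seen. How much these lists contribute to the values of the 10 markers was not tested. The plot of log2 fold changes by list shows the spread within each.

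**Figure D3:**
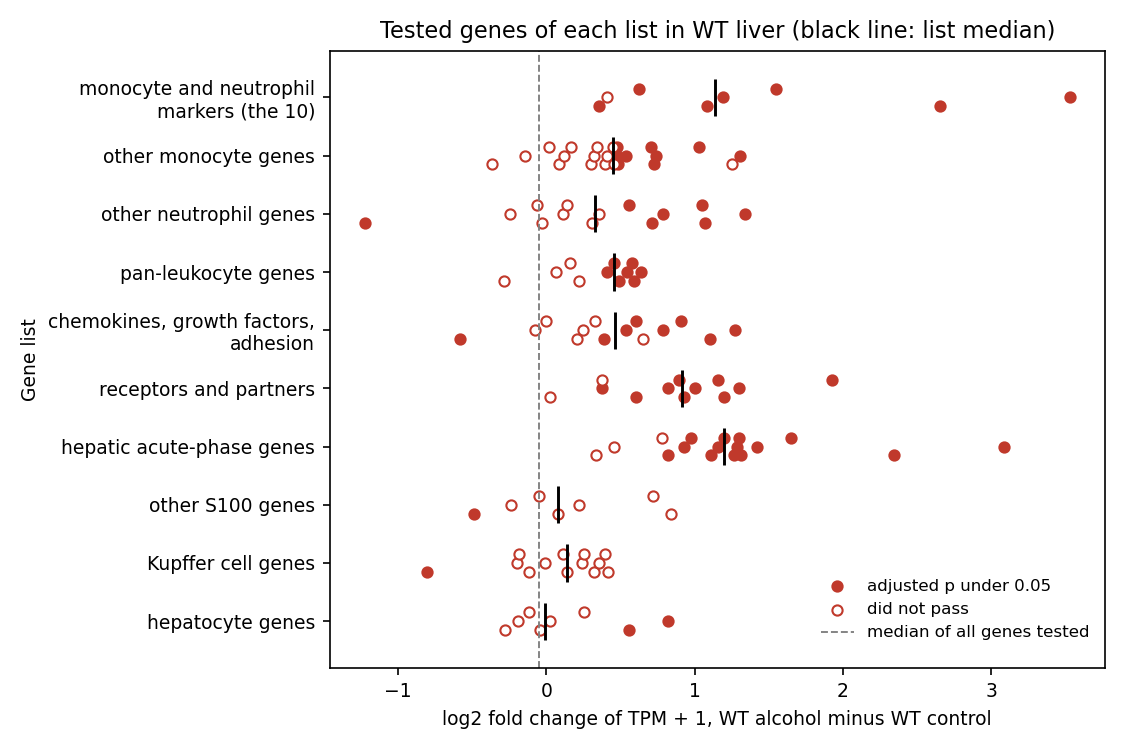
Log2 fold change on the TPM + 1 scale, WT alcohol minus WT control, for each tested gene of 10 lists; filled points passed at an adjusted p under 0.05, black lines are list medians and the dashed line is the median of all genes tested. The markers have a median of 1.14 and the hepatic acute-phase genes one of 1.20, while Kupffer cell genes lie around 0.14. Of the markers, Ngp, S100a4 and Itgam were tested only through the alcohol group, so their median is a description.

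In the libraries labelled RageΔMye, 5 of the 10 markers were not seen. S100a4, Ccr2, Ly6c2, Ngp and Cx3cr1 were listed at 0 in all 6 libraries. Lcn2 was at 34.7, 90.5 and 407.9 TPM in RageΔMye alcohol livers, against 0, 102.7 and 43.1 TPM in RageΔMye control livers. These groups overlapped, and RageΔMye alcohol 3 was the highest of the 6. Cd14 was at 12.4, 10.8 and 0 TPM in RageΔMye alcohol livers, against 0, 0 and 19.9 TPM in RageΔMye control livers. S100a8 was at 30.3, 0 and 0 TPM in RageΔMye alcohol livers and listed at 0 in all RageΔMye control livers, while S100a9 was listed at 0 in all RageΔMye alcohol livers and at 0, 20.5 and 0 TPM in RageΔMye control livers. The paired subunits did not appear in the same library. Itgam was at 2.74 TPM in RageΔMye alcohol 1 and listed at 0 in the other 5 libraries.

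None of the 4 markers tested in the libraries labelled RageΔMye passed, and 4 of 10686 genes did, which is 0.0374%; at an unadjusted p under 0.05 there were 747 genes and 0 markers. The log2 fold change of Lcn2 was 2.73 (SE 1.68, adjusted p = 0.751, limma) and that of Cd14 was 0.97 (SE 1.53, adjusted p = 0.844, limma), with standard errors of 0.63 and 0.31 for these genes in the WT fit. Single libraries decided these values: Lcn2 had 0.70 without RageΔMye control 1 and 4.05 without RageΔMye control 2, and Cd14 had 0.24 without either of them and 2.43 without RageΔMye control 3. At a pseudocount of 0.01 the log2 fold change was 4.94 for Lcn2 and 3.13 for Cd14. The most frequent value above 0 in a library was 14.4 to 20.5 TPM here, against 0.0576 to 0.0835 TPM in WT libraries. Each Lcn2 value was a whole multiple of it within 0.2%, at 2, 6 and 28 times it in RageΔMye alcohol livers and at 5 and 3 times it in the RageΔMye control livers above 0. The S100a9 value above 0 was equal to it. The values of Cd14, S100a8 and Itgam were not whole multiples, and that of Itgam was 0.158 times it, so it is not a floor for every gene. Ngp, Ly6c2, S100a4, Itgam, Cx3cr1 and Ccr2 had means of at most 4.41 TPM in WT alcohol liver, so levels like theirs may not be detectable in these libraries. S100a8 and S100a9 averaged 53.0 and 54.2 TPM in WT alcohol liver and were also listed at 0 in most libraries labelled RageΔMye. Whether the opposite-strand share given above bears on the marker values was not tested. Housekeeping genes were also listed at 0, with 1 or 2 of 14 at 0 in each of these libraries, and 0 of 14 in every WT library. No other monocyte or neutrophil gene passed, and 23 of 30 other neutrophil genes were listed at 0 throughout.

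The diet effect in WT liver was set against that in the libraries labelled RageΔMye in one model of all 14 liver libraries with a weight per genotype. None of the 8 markers tested passed, and 61 of 12066 genes did, which is 0.506%; at an unadjusted p under 0.05 there were 1026 genes and 0 markers. The difference of the log2 fold changes was 1.69 for Cd14 (SE 2.05, adjusted p = 0.875, limma) and 0.80 for Lcn2 (SE 3.78, adjusted p = 0.981, limma). Differences for the other 6 rest on groups listed at 0. That a marker passed in WT liver and not in the libraries labelled RageΔMye is not shown to be a difference between genotypes. The 2 genotypes also differed in genes listed and in the opposite-strand share, as given above. Genotype and these differences between library sets cannot be told apart in this model. Y-linked genes differed between the diets in both genotypes, as given above.

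**Figure D4:**
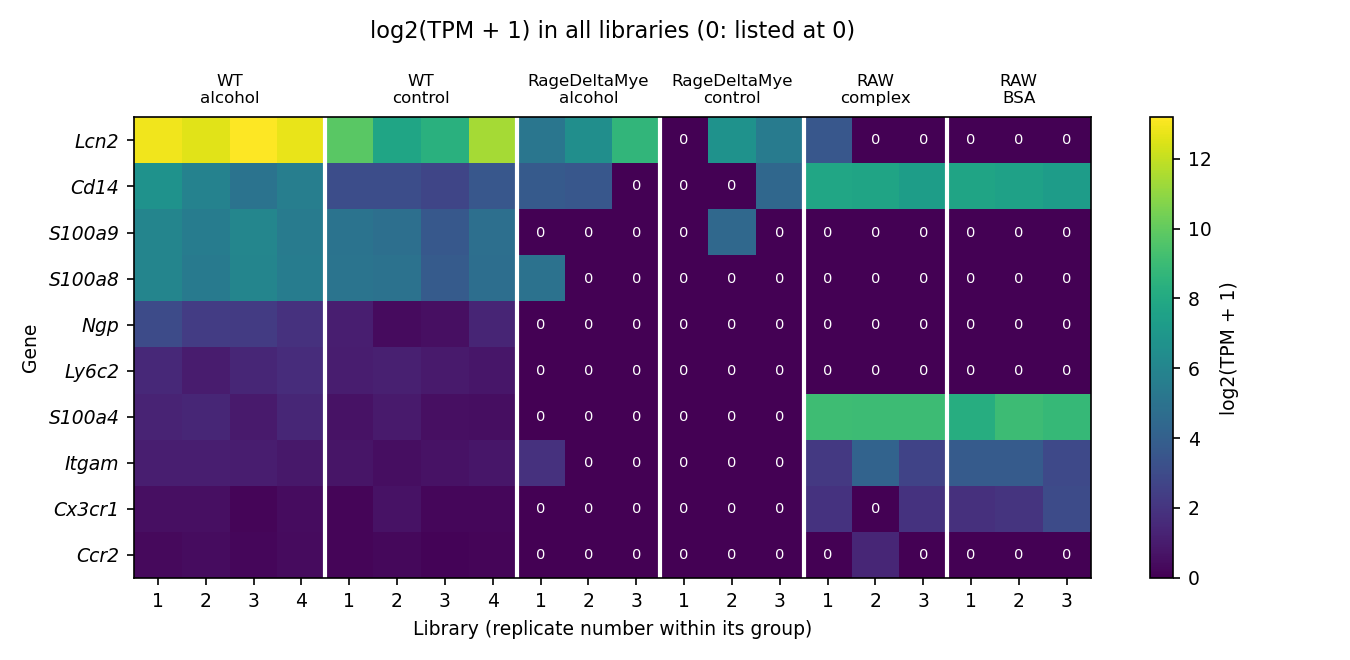
Log2(TPM + 1) of the 10 markers in all 20 libraries, columns grouped by diet or treatment and rows ordered by mean TPM in WT alcohol liver; a printed 0 marks a value listed at 0. All 10 markers are above 0 in every WT library, 5 are at 0 in all 6 libraries labelled RageΔMye, and in RAW264.7 Cd14 and S100a4 stand out.

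In RAW264.7 cells S100a4 and Cd14 had the highest TPM of the markers. S100a4 was at 537, 519 and 518 TPM with the complex, against 297, 524 and 456 TPM with BSA. Cd14 was at 225, 206 and 158 TPM with the complex, against 204, 188 and 153 TPM with BSA. The treatment groups overlapped for both genes, with BSA 1 the low library for S100a4 and replicate 3 the low library of each group for Cd14. Itgam was at 3.64, 17.1 and 5.34 TPM with the complex and 12.99, 12.8 and 6.57 TPM with BSA, and Cx3cr1 at 2.83, 0 and 2.78 TPM with the complex and 2.58, 2.91 and 6.97 TPM with BSA. Lcn2 was at 10.9 TPM in complex 1, the most frequent value above 0 in that library, and listed at 0 in the other 5, and Ccr2 was at 1.64 TPM in complex 2 and listed at 0 in the other 5. S100a8, S100a9, Ly6c2 and Ngp were listed at 0 in all 6 libraries. Values above 0 were most often 9.85 to 13.4 TPM in these libraries, though those of Cx3cr1, Ccr2 and in part Itgam lay below that. In 5 of the 6, 1 or 2 of 14 housekeeping genes were listed at 0, and why was not tested. A marker listed at 0 here may therefore not be absent from the cells.

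None of the 5 markers tested in RAW264.7 passed, and 19 of 10556 genes did, which is 0.18%; at an unadjusted p under 0.05 there were 877 genes and 0 markers. The log2 fold change was 0.11 for Cd14 (SE 0.20, adjusted p = 0.885, limma), 0.34 for S100a4 (SE 0.21, adjusted p = 0.71, limma), -0.49 for Itgam (SE 0.63, adjusted p = 0.798, limma) and -0.98 for Cx3cr1 (SE 0.76, adjusted p = 0.755, limma). The sign for Cd14 turned without BSA 3 and without complex 1, and Itgam ran from -1.07 without complex 2 to -0.09 without complex 1. Cx3cr1 was -0.34 without complex 2 and -3.13 at a pseudocount of 0.01. No gene of the other monocyte and neutrophil lists passed, and the summed monocyte list was 2380 to 3070 TPM with the complex and 2290 to 3400 TPM with BSA, with 8 of its 28 genes listed at 0 throughout. The liver and RAW264.7 tables were normalised separately, so no value was tested between them.

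**Figure D5:**
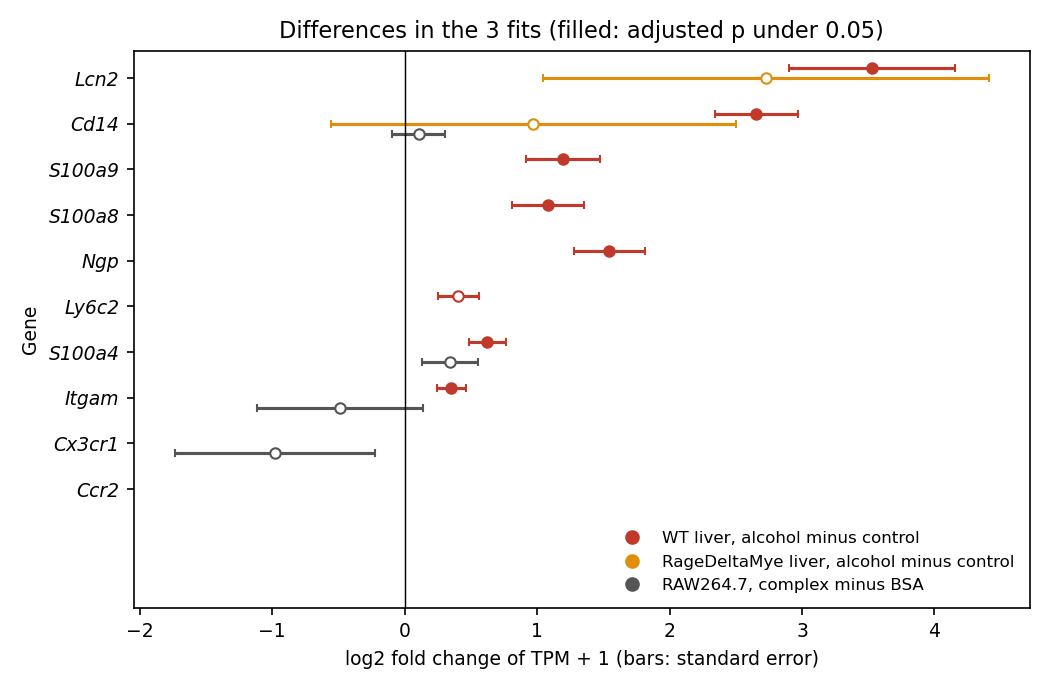
Log2 fold change on the TPM + 1 scale with its standard error in the 3 separate fits, WT liver in red, libraries labelled RageΔMye in orange and RAW264.7 in grey; filled points passed at an adjusted p under 0.05, and a gene is left out where it was not tested or where a group was listed at 0 throughout. The 7 filled points are all from WT liver, and the bars of Lcn2 and Cd14 are widest in the libraries labelled RageΔMye.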

How the data were processed

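Per the labels' protocols, libraries of total liver and RAW264.7 RNA came from a TruSeq Stranded mRNA preparation. The submitters' processing notes name mm10 as the build. Which aligner, counter, strand setting and gene models were used is not given in the sources used here. The authors deposited 1 table per tissue with 24972 rows and no unit in the header. The deposited values were read as TPM, since every column summed to nearly the same total and was not whole. The depth behind them is unknown, so no counting interval is given. The 4 rows with repeated symbols were dropped.

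Differences of log2(TPM + 1) were tested with limma 3.58.1 (R 4.3.3, trend option on) for genes averaging 1 TPM or more in any group fitted. Benjamini-Hochberg adjustment ran over all genes tested, and the threshold was an adjusted p of 0.05. WT, RageΔMye and RAW264.7 libraries were fitted separately, and the difference of diet effects in all 14 liver libraries with a weight per genotype, which made 4 comparisons. The fits were tested on simulated data. Samples were grouped by the labels, and WT livers were numbered in accession order.

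Named are the 10 markers, their nearest profiles over WT libraries, and from each gene list up to 4 members past the WT test with the smallest adjusted p, or else values only. The markers and lists were chosen with earlier results of these data known. Positions and exon overlaps came from GENCODE vM21, which named 24464 of 24968 symbols, 5931 of them with an opposite-strand exon overlap, and identities from Biopython 1.88. Alternatives were pseudocounts of 0.1 and 0.01, no filter, a filter at 5 TPM, median-ratio and quantile scaling, a joint fit, no weights, a replicate block, an exact permutation test and leaving out each library.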

Additional observations from a re-analysis of the deposited data

Results flagged for a closer look

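In 20 sets of 4 WT libraries (10 markers on 2 diets), a highest or lowest library far from the others was looked for with Dixon's criterion, which chance meets in about 1 in 20 sets, and 2 sets met it. Cx3cr1 was at 0.5628 TPM in WT control 2, far above the other WT control libraries. Itgam was at 0.7809 TPM in WT alcohol 4, far below the other WT alcohol libraries. No cause was tested for either value.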

How the results depend on the processing

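In WT liver the markers called were 4 at a filter of 5 TPM, which tested 4 of them, 1 in the joint fit of 14 libraries and 6 to 7 without each library in turn, and the genes called were 1879, 336 and 2053 to 3467 under these settings, against 7 markers and 3040 genes as reported. Under the other settings the WT calls kept their direction and side of the threshold, except Itgam without single libraries and Ly6c2 without WT alcohol 2. Their sizes moved with the pseudocount for the low markers, as given with the values. In the libraries labelled RageΔMye no marker passed under any setting, and genes called were 0 with a pseudocount of 0.01, 9 at a filter of 5 TPM, 7 with quantile scaling, 657 in the joint fit and 0 to 5 without single libraries. In RAW264.7 genes called were 2 to 9 without single libraries, and the Cd14 log2 fold change ran between -0.01137 without BSA 3 and 0.2543 without complex 3, with -5.157e-05 without complex 1. The difference of diet effects had 463 calls with no library weights and 50 to 71 without single libraries. It turned sign for Lcn2 with a pseudocount of 0.1 (-0.3006), without RageΔMye control 2 (-0.5216) and without RageΔMye alcohol 1 (-0.01278), and, in the last case, for S100a8 (1.081) and Itgam (0.3535), since all RageΔMye libraries left were then at 0 for these. Without single libraries the difference ran from -0.5216 to 2.827 for Lcn2, from -1.403 to 1.081 for S100a8 and from -0.5976 to 0.3535 for Itgam. Other causes were not tested.

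With the sample number as a replicate block, 0 genes and 0 markers passed in the libraries labelled RageΔMye and likewise in RAW264.7. Same-numbered libraries deviated with correlations between -0.0249 and 0.018, and differently numbered ones with correlations between -0.0374 and 0.0378. No pairing by number was seen, but 3 libraries per group cannot show that the libraries are unpaired. WT numbers follow accession order and gave no paired fit.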
